A study of Mus musculus with 6 samples.

Results

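Foxp3 and Flicr are neighbouring, overlapping genes on the mouse X chromosome, and they were followed here through colonic CD4 T cells sorted by a reporter of the Foxp3 locus. Both members were taken by name, 2 of the 15473 genes of the deposited table. Foxp3 encodes a forkhead factor, the lineage regulator of Treg (regulatory T) cells, and sustains much of their gene programme. In Treg cells the gene is driven by a weak promoter that needs conserved enhancers, and factors downstream of the T cell receptor, IL-2 and TGF-beta act on these elements. Flicr is a long noncoding RNA made from the same region. It is known as an RNA of Treg cells that acts in cis to lower Foxp3 expression, most visibly in cells in which Foxp3 is already low.

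The cells came from the colonic lamina propria of mice of the genotype Foxp3{delta}EGFPiCre/WT at the Foxp3 locus and R26lsl-tdTomato/wt at the R26 locus. That is, 1 Foxp3 allele, marked delta in its name, carries an insert with EGFP and the iCre recombinase, and the other is wild type. The counts do not show whether RNA of the delta allele gives functional Foxp3 protein. At the R26 locus, 1 copy holds a tdTomato reporter that stays silent until Cre removes a stop. All groups share this genotype, and the labels give no age. CD4 T cells with both reporters make up the tdTomato+GFP+ gate, those with neither the tdTomato-GFP- gate, and cells that show a single reporter are outside both. Because GFP and Cre are made from the Foxp3 locus, the sort itself selected on activity of that locus, and a difference in Foxp3 between the gates is in part set by it. The same can hold for Flicr, which is made from the same region. GFP is made from the inserted allele only, so cells sorted as tdTomato+GFP+ had that allele in use. The gates may thus draw their counts from the inserted and the wild-type allele of this X-linked gene in different shares. A gate difference in Foxp3, Flicr or their ratio cannot be told apart from a difference between the alleles. In the counts, transcripts of these alleles cannot be told apart, and the part of the allele in the levels and ratios below was not tested. Each gate was loaded on a 10x lane of its own, with 3 biological replicates marked by hashtags, and an effect of the gate and one of the lane cannot be told apart.

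In the GENCODE annotation of GRCm38, Foxp3 (ENSMUSG00000039521) runs on the plus strand of chromosome X from 7573644 to 7595245, and Flicr (ENSMUSG00000039545) on the same strand from 7573600 to 7581027. The longer Flicr transcript has 3 exons, and its last exon (7577908 to 7581027, 3120 bases) covers the region where most Foxp3 transcripts begin. Of 10 annotated Foxp3 transcripts, 8 have a first exon that lies wholly inside Flicr exons. The exons of both genes share 853 bases, which are 18.6% of the exonic bases of Foxp3 and 23.8% of those of Flicr. Reads from these shared bases cannot be told apart by position or strand, and how the authors' counting treated them is not given in the sources used here. The Flicr count and the Foxp3 count are therefore read as what was assigned to each gene, not as complete levels. On the other strand, Ppp1r3f (7557296 to 7574283), which encodes a glycogen-targeting subunit of protein phosphatase 1, overlaps 310 exonic bases of Flicr.

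Both upstream sequences are shown because they carry this overlap. They are from RefSeq (GRCm38.p6), 5′ to 3′ on the plus strand, with a match to a motif searched in capitals (TTTCC in the Foxp3 stretch, none in that of Flicr). The Flicr stretch (chrX:7573350-7573599) ends at the base before the Flicr start and lies in a coding exon of Ppp1r3f, read from the other strand. The Foxp3 stretch (chrX:7579426-7579566) stops where the first annotated Foxp3 exon base of the region begins, and all of its 141 bases lie in the last exon of Flicr.
Flicr upstream: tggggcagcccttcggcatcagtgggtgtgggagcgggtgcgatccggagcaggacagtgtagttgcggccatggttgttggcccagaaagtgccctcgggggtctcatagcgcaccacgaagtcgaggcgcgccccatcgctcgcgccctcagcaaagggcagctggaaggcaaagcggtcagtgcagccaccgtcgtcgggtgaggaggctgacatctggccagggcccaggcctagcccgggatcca
Foxp3 upstream: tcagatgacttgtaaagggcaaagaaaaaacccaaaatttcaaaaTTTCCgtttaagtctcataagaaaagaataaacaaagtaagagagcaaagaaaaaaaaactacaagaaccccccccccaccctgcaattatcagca
Both strands were searched for the forkhead motif TGTTTAC, the STAT motif TTCNNNGAA, the AP-1 motif TGANTCA, the CRE motif TGACGTCA, the Runx motif TGTGGTT, the NFAT core GGAAA, the TATA box motif TATAAA and the GC box motif CCGCCC. The window of 250 bases before to 50 after the Flicr start held none of them and had a GC content of 67.3%. The table holds windows for 2 Foxp3 starts, 7579676 and 7580483, both inside the last exon of Flicr, with a GC content of 40.7% and 47.7%. The window of the start at 7579676, from which the stretch above is taken, held GGAAA on the minus strand at -205 and 2 from the start and TATAAA on the plus strand at -32, with no overlap among them. The window of the start at 7580483 held TTCNNNGAA at -139, which reads alike on both strands, and GGAAA on the minus strand at -140, and these 2 matches overlap. Of 32851 promoters of this length in the table, 61.3% hold GGAAA, 13.6% hold TATAAA and 8.30% hold TTCNNNGAA.

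A hashtag gave 18874 of 23595 deposited cells their replicate. Of these, 10109 came from tdTomato-GFP- and 8765 from tdTomato+GFP+ sorts. Median depth was 3860 and 3632 UMIs per cell. A UMI is a molecular tag that counts 1 captured transcript, and levels are given as CPM, the gene's UMIs scaled to a total of 1000000 UMIs in the sample, without hashtags. The 5 pan T cell markers, Cd4 among them, summed to between 2928 and 3726 CPM in the 6 replicates. Cell barcodes present among assigned cells of both lanes numbered 106. No Foxp3 and no Flicr UMI was seen in 13 and 22 cells with B or plasma cell markers and no T cell gene (median 21744 and 3803 UMIs), which allows shares of up to 23.1% and 13.6%. These limits are too wide to set a background for the shares below.

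Flicr was higher in the tdTomato+GFP+ gate in every replicate, while Foxp3 was lower. For replicates 1, 2 and 3, Flicr stood at 7.30, 6.47 and 4.54 CPM among tdTomato-GFP- cells and at 21.5, 16.2 and 17.2 CPM among tdTomato+GFP+ cells. The groups did not overlap. The log2 fold change was 1.51 (SE 0.17, n = 3 per gate, adjusted p = 0.000512 in edgeR's quasi-likelihood test). In that fit 26.4% of 11933 genes were called, 13.0% higher and 13.4% lower in tdTomato+GFP+ cells. Foxp3 gave 174, 194 and 168 CPM against 144, 118 and 115 CPM, and it fell by 0.52 on the log2 scale (SE 0.10, adjusted p = 0.00594). When each cluster gave as many cells to one gate as to the other, the Flicr difference was 1.48 (adjusted p = 0.0407) and that of Foxp3 was -0.05 (adjusted p = 0.945, no longer called). With 1 cell per clonotype, a set of cells with the same receptor chains, Flicr rose by 0.95 (adjusted p = 0.0186) and Foxp3 fell by 0.97 (adjusted p = 4.53e-06). The size of the Foxp3 difference thus moved in opposite ways under these 2 choices of cells. The summed level of 8 Th17 markers over all cells was 2296 to 2834 CPM in the first gate and 12877 to 17275 CPM in the second. Also higher without overlap were the sums of Treg (3415 to 3998 and 4434 to 5307 CPM), pan T cell and myeloid markers. Lower without overlap were those of Th1 (698 to 753 and 329 to 485 CPM), Tfh (400 to 519 and 296 to 344), CD8 T cell, epithelial and innate-like markers. The part of these sets in the results was not tested.

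Set against each other, the 2 RNAs of the locus gave a ratio that differed between the gates. In the tdTomato-GFP- gate 4.19, 3.33 and 2.70 Flicr UMIs were counted per 100 Foxp3 UMIs. In the tdTomato+GFP+ gate the ratio was 15.0, 13.7 and 14.9. The groups did not overlap, the mean difference was 11.1, and the exact two-sided permutation p was 0.1, the smallest that 3 replicates against 3 can give. The ratio rests on 294 Flicr and 8028 Foxp3 UMIs in the tdTomato-GFP- gate and on 658 and 4596 in the tdTomato+GFP+ gate. Pooled over replicates it was 3.66 (95% interval 3.25 to 4.11) and 14.3 (13.2 to 15.5), where the exact intervals cover counting error only. Outside cluster 5, the cluster with most Foxp3, it was 3.64 (SD 0.42) and 14.8 (SD 0.84), so the gap between the gates was as large without that cluster.

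**Figure D1:**
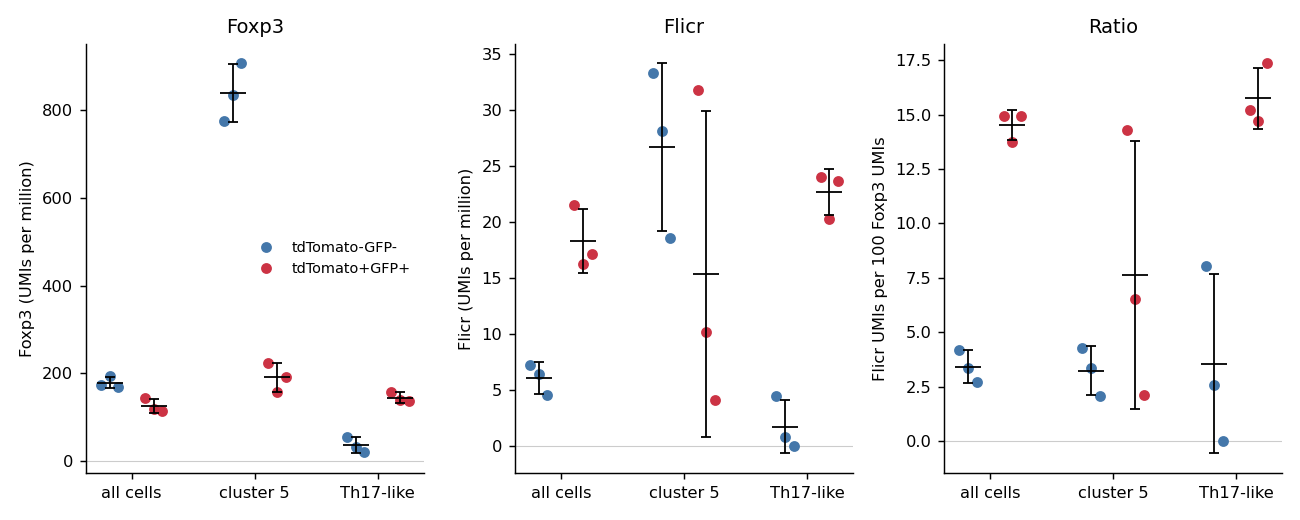
Levels of Foxp3 and Flicr in CPM and Flicr UMIs per 100 Foxp3 UMIs, each for all cells, cluster 5 and the Th17-like clusters. Points are the 3 hashed replicates of a gate, the bar is their mean and the error bar 1 SD. Over all cells the Flicr ratio lies between 2.70 and 4.19 in tdTomato-GFP- and between 13.7 and 15.0 in tdTomato+GFP+ replicates.

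Foxp3 was spread differently over cells in the gates. A Foxp3 UMI was found in 21.8, 23.1 and 19.0% of tdTomato-GFP- cells and in 37.8, 33.2 and 31.3% of tdTomato+GFP+ cells. Positive cells of the tdTomato-GFP- gate held 3.70 Foxp3 UMIs on average (SD 0.12), those of the tdTomato+GFP+ gate 1.56 (SD 0.050). Of 2194 positive tdTomato-GFP- cells, 23.0% had 1 Foxp3 UMI and 29.1% had 5 or more, with a highest count of 21. Of 2946 positive tdTomato+GFP+ cells, 64.3% had 1 Foxp3 UMI and 1.90% had 5 or more, with a highest count of 10. The tdTomato+GFP+ gate thus held more cells with Foxp3, at fewer UMIs each, and neither measure overlapped between the gates (exact permutation p = 0.1 for each). After thinning each cell to 2000 UMIs, which left out 637 and 505 shallower cells, shares of Foxp3-positive cells were 17.2% (SD 1.91) and 21.7% (SD 2.93). Flicr was sparse in both gates. It was found in 2.81, 2.44 and 1.85% of tdTomato-GFP- cells and in 8.36, 6.36 and 6.44% of tdTomato+GFP+ cells, with 1 UMI in 86.3% and 89.9% of the positive cells. Thinned, the Flicr shares were 1.19% (SD 0.34) and 3.89% (SD 1.12).

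The shares with Flicr lay close between the gates among cells with Foxp3 and far apart among cells without a Foxp3 UMI. Of Foxp3-positive cells, 11.1, 8.62 and 8.02% also had Flicr in the tdTomato-GFP- gate and 13.5, 10.5 and 9.68% in the tdTomato+GFP+ gate. The ranges overlap (mean difference 1.97 percentage points, exact permutation p = 0.3). Within pairs of the same replicate number, however, the share was higher in the tdTomato+GFP+ gate in 3 of 3, by 2.36, 1.89 and 1.66 points (exact paired permutation p = 0.25, the smallest that 3 pairs can give). Of Foxp3-negative cells, 0.496, 0.585 and 0.403% had Flicr in the tdTomato-GFP- gate and 5.25, 4.29 and 4.96% in the tdTomato+GFP+ gate, with no overlap (exact permutation p = 0.1). Seen from the other side, Foxp3 was found in 83.4% (SD 2.48) of Flicr-positive tdTomato-GFP- cells and in 54.3% (SD 6.95) of those of the tdTomato+GFP+ gate. That difference, -29.0 percentage points, was -42.0 after thinning (exact permutation p = 0.1 for both). A cell without a Foxp3 UMI is not shown to lack Foxp3 RNA, since a single UMI was the most frequent positive count in the tdTomato+GFP+ gate.

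Over all cells, at equal Foxp3 counts Flicr was detected in a larger share of tdTomato+GFP+ cells, at every step and without overlap between the replicates. With 1 Foxp3 UMI, 4.76% of 504 tdTomato-GFP- cells (95% exact binomial interval 3.07 to 7.003) and 9.08% of 1895 tdTomato+GFP+ cells (7.82 to 10.5) had Flicr. With 2 UMIs the shares were 8.98% (6.402 to 12.2) and 12.9% (10.5 to 15.6), with 3 to 4 UMIs 10.9% (8.63 to 13.6) and 16.5% (12.5 to 21.2), and with 5 or more 13.2% (10.6 to 16.0) and 21.4% (11.6 to 34.4). By replicate, the shares at 1 UMI were 5.24, 5.75 and 1.22% against 12.7, 8.38 and 7.55%, and at 2 UMIs 10.5, 6.92 and 7.55% against 12.6, 12.4 and 14.2%. At 3 to 4 UMIs they were 12.2, 9.31 and 9.90% against 16.0, 18.3 and 13.0%, and at 5 or more 15.0, 11.4 and 11.5% against 33.3, 19.4 and 15.4%, the latter from 12, 31 and 13 cells. The pooled intervals cover counting error only and overlap from 2 UMIs on. At each of these 4 steps the tdTomato+GFP+ cells were also deeper. Their median depths were 3768, 3966.5, 4165 and 5537.5 UMIs, against 3323.5, 3344.5, 3656 and 4270. The part of depth in this gate difference was not tested. In both gates the share with Flicr was higher in each step of Foxp3 counts, but median depth also rose, from 3323.5 to 4270 UMIs between the cells with 1 and with 5 or more Foxp3 UMIs in the tdTomato-GFP- gate and from 3768 to 5537.5 in the other. As a description, the odds of Flicr in cells with Foxp3 over cells without, stratified by cluster and depth quartile (Mantel-Haenszel), were 7.53, 5.63 and 7.56 in tdTomato-GFP- and 2.69, 2.32 and 1.78 in tdTomato+GFP+ replicates. Unstratified, these odds ratios averaged 20.9 (SD 4.54) and 2.50 (SD 0.39). Within cluster 5 of the tdTomato-GFP- gate, where most cells had Foxp3, the stratified odds ratios were 2.31, 2.37 and 1.66, and in the Th17-like clusters of the tdTomato+GFP+ gate they were 2.24, 2.16 and 1.60.

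**Figure D2:**
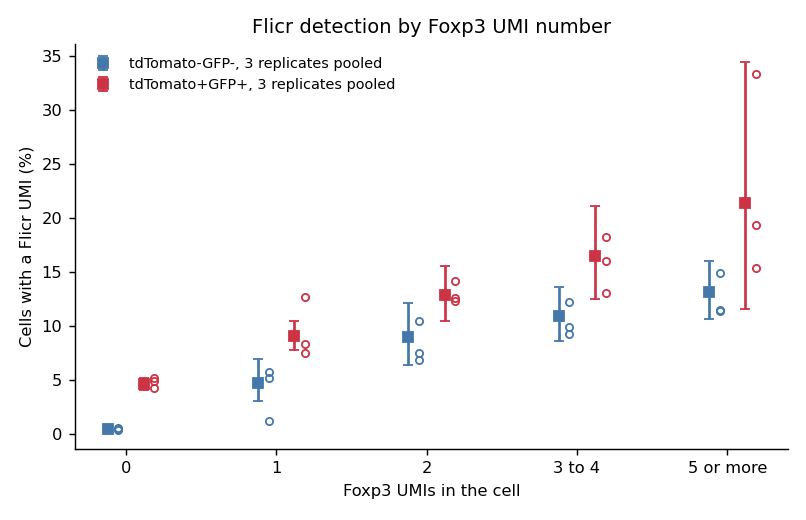
Share of cells with a Flicr UMI (percent, y axis) against the number of Foxp3 UMIs in the cell (x axis) for both gates. Squares pool the 3 replicates, with 95% exact binomial intervals, and open circles are the single replicates. Among cells without Foxp3 the pooled shares are 0.505% and 4.66%. Over all cells, as drawn, the gates' pooled intervals overlap from 2 Foxp3 UMIs on, while the single replicates of the gates overlap at no step.

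Cluster 5 held the highest Foxp3 level of the tdTomato-GFP- gate. Beside Foxp3, 11 of 12 Treg markers were raised in it. Its leading genes held Klrg1 of the Treg markers, but also Areg of the Th2 and Gzma and Gzmb of the cytotoxic markers. The naming rule, with thresholds set after the data were seen, asks that the leading genes hold more markers of 1 set than of any other. By that rule cluster 5 took no name, so it is called by its number. Foxp3 was at 776, 836 and 907 CPM in the tdTomato-GFP- gate and at 223, 157 and 193 CPM in the tdTomato+GFP+ gate. These groups lie far apart, and the fall was 2.13 on the log2 scale (SE 0.16, adjusted p = 7.75e-07), in a fit that called 3.71% of 6491 genes (1.51% higher, 2.20% lower). Flicr stood at 33.3, 28.1 and 18.6 CPM against 31.8, 10.2 and 4.10 CPM. The Flicr ranges overlap, and the difference of -1.27 (SE 0.53, adjusted p = 0.236) did not pass. Only 3, 3 and 1 Flicr UMIs lie behind the tdTomato+GFP+ values, from 24, 80 and 58 cells, so little could be detected at this depth. The Flicr ratio was 4.29, 3.37 and 2.05 per 100 Foxp3 UMIs in tdTomato-GFP- and 14.3, 6.52 and 2.13 in tdTomato+GFP+ cells, again overlapping (exact permutation p = 0.3). In pairs of the same replicate number it was higher in tdTomato+GFP+ cells in 3 of 3, by 9.995, 3.15 and 0.0764 (exact paired permutation p = 0.25). Markers of several cell types differed between the gates in this cluster. The summed level of 12 Treg markers was 8303 to 9213 CPM among tdTomato-GFP- replicates, against 5083 to 8690 CPM among tdTomato+GFP+ ones, that of 8 Th2 markers 2806 to 6316 and 8499 to 15668 CPM, and that of 8 Th17 markers 279 to 411 and 1271 to 2808 CPM. The Treg sums overlap, the Th2 and Th17 sums do not. Lower without overlap in tdTomato+GFP+ cells were the sums of Th1 (354 to 594 and 115 to 318 CPM), Tfh (452 to 508 and 246 to 357), B and plasma cell (350 to 423 and 71.5 to 127) and myeloid markers (337 to 391 and 245 to 283). That of 3 innate-like and gamma delta markers was 1.66 to 6.98 CPM against 0. In the tdTomato+GFP+ gate Ms4a1, Itgax and the 3 innate-like markers were at 0, and no other marker of these sets was at 0 in either gate. Their part in the results was not tested.

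In the Th17-like clusters (1, 2, 3, 12 and 13, led by Il17a, Il17f and Ccl20) both RNAs were higher in the tdTomato+GFP+ gate. Flicr was at 4.46, 0.793 and 0 CPM in the tdTomato-GFP- gate, from 12, 1 and 0 UMIs, and at 24.1, 20.3 and 23.7 CPM in the tdTomato+GFP+ gate, from 121, 253 and 126 UMIs. It rose by 3.08 on the log2 scale (SE 0.40, adjusted p = 0.000545). Replicate 1 of the tdTomato-GFP- gate holds nearly all Flicr of its group, and without it the difference was 5.56 with a call that held (adjusted p between 0.000141 and 0.00587 when each replicate was left out). This fit called 11.2% of 10075 genes, 4.75% higher and 6.45% lower. Foxp3 gave 55.3, 30.9 and 19.8 CPM against 158, 138 and 136 CPM and rose by 1.82 (SE 0.30, adjusted p = 0.0255). That call was lost without tdTomato-GFP- replicate 2 (adjusted p = 0.0958) and without tdTomato+GFP+ replicate 1 (0.0675), 2 (0.0950) or 3 (0.0795). The ratio was 8.05, 2.56 and 0 Flicr UMIs per 100 Foxp3 UMIs against 15.2, 14.7 and 17.4, without overlap (exact permutation p = 0.1). The summed level of the 8 Th17 markers was 15536 to 17146 CPM against 21328 to 23483 CPM, and that of the 12 Treg markers 4562 to 5082 against 5446 to 5966 CPM. Also higher without overlap were the 5 pan T cell markers (3386 to 3571 and 3903 to 4187 CPM) and 7 cytotoxic markers (435 to 511 and 551 to 1320 CPM). Lower without overlap were the sums of Th1 (1239 to 1472 and 389 to 612 CPM), Tfh (379 to 446 and 300.5 to 352), stromal (46.8 to 66.4 and 29.3 to 39.0) and innate-like markers (5.57 to 26.8 and 0.994 to 4.09). Of these sets, Eomes was at 0 in both gates and Acta2 in the tdTomato-GFP- gate. Their part in the results was not tested.

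The gate effect on both RNAs differed between cluster 5 and the Th17-like clusters. The difference of effects was -4.38 on the log2 scale for Flicr (SE 0.63, adjusted p = 1.16e-05) and -3.99 for Foxp3 (SE 0.45, adjusted p = 0.00971), in a fit with replicate as a block in which 2.16% of 9316 genes were called lower. For Flicr it was -6.55 without tdTomato-GFP- replicate 1. For Foxp3 the call was lost without tdTomato+GFP+ replicate 1 (adjusted p = 0.0715), 2 (0.0930) or 3 (0.103). The 2 RNAs thus shared the direction of this difference, and each had n = 3 replicates per gate and class.

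Across the 11 clusters with at least 20 cells in each replicate, levels of Foxp3 fell into a different order in the 2 gates. In tdTomato-GFP- cells cluster 5 stood at 840 CPM (SD 65.6). Cluster 8 (201, SD 14.7), cluster 11 (181, SD 46.3) and cluster 4 (145, SD 3.28) followed. Cluster 11 overlaps both others, which do not overlap each other. Clusters 10, 0, 6, 7, 2 and 3 lay between 85.1 and 39.4 CPM and cluster 1, led by Il17a, was lowest at 8.14 CPM (SD 3.91). From cluster 10 down to cluster 1 each range overlaps the next. In tdTomato+GFP+ cells the order ran from cluster 5 (191, SD 33.1) through the Th17-like clusters 2 (174, SD 16.1) and 1 (151, SD 21.1) to the cycling-like cluster 10 (64.3, SD 8.54), and each range overlapped the next. Cluster 5 and cluster 10 did not overlap. For Flicr, tdTomato-GFP- cells of cluster 5 stood at 26.7 CPM (SD 7.45) above all other clusters, which lay between 6.50 CPM (cluster 8) and 0.536 CPM (cluster 1) with overlapping ranges. In the tdTomato+GFP+ gate Flicr was highest in clusters 2 (25.6, SD 3.73) and 1 (22.5, SD 3.34) and lowest in cluster 10 (7.96, SD 2.41), with overlapping neighbours.

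Tested cluster by cluster outside cluster 5, Flicr passed where its counts sufficed for a fit, while Foxp3 was tested in every cluster. The numbers of passes are therefore not compared. Flicr was higher in tdTomato+GFP+ cells of cluster 0, which is Th2-like (log2 fold change 2.05, SE 0.45, adjusted p = 0.0207), of clusters 1 (4.58, SE 0.70, adjusted p = 0.000292), 2 (3.08, SE 0.44, adjusted p = 5.72e-05) and 3 (2.30, SE 0.56, adjusted p = 0.0132), and of cluster 6, led by Ccl5 and Ifng (1.87, SE 0.45, adjusted p = 0.00883). In these fits 0.805, 2.20, 2.29, 1.78 and 2.00% of genes were called higher. Few Flicr UMIs of the tdTomato-GFP- gate lie behind these values: 1, 0 and 0 by replicate in cluster 1, 5, 1 and 0 in cluster 2, and 5, 0 and 0 in cluster 3, against 192, 159 and 99 in all in the tdTomato+GFP+ gate. Flicr passed the count filter there through the tdTomato+GFP+ replicates, and the fitted folds over levels so near 0 are imprecise. From pooled UMIs the ratio of levels was 26.7 in cluster 1 (95% interval 4.74 to 1061), 8.62 in cluster 2 (3.87 to 23.8) and 5.10 in cluster 3 (2.11 to 16.1), where the exact intervals cover counting error only. In clusters 0 and 6 the tdTomato-GFP- gate gave 21 and 17 Flicr UMIs, and the ratios were 3.998 (2.27 to 7.21) and 3.76 (2.10 to 7.03). Flicr had too few counts to be tested in clusters 4, 7, 8, 10 and 11. Foxp3 rose in clusters 1 (3.99, SE 0.27, adjusted p = 1.13e-08) and 2 (1.72, SE 0.15, adjusted p = 4.20e-08). In cluster 1 this rests on 7, 3 and 1 Foxp3 UMIs of the tdTomato-GFP- replicates, against 379, 673 and 247. That fold is thus also set over levels near 0, in gates sorted on this locus. In clusters 0, 3 and 6 its differences of 0.25, 0.98 and 0.69 did not pass (adjusted p = 0.410, 0.369 and 0.272), and in cluster 8 it was -0.69 (adjusted p = 0.0843). Blocked on replicate number, Foxp3 passed in clusters 6 (0.75, adjusted p = 0.0480) and 8 (-0.72, adjusted p = 0.0346). In cluster 8, 0.456% of genes were called lower without the block. In clusters 4, 7, 10 and 11 Foxp3 did not pass, where 0.921, 2.08 and 2.07% of genes were called lower in clusters 4, 10 and 11 and 0.395% higher in cluster 7, with differences of -0.96, 0.53, -0.40 and -0.80 (adjusted p = 0.334, 0.750, 0.290 and 0.0884).

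**Figure D3:**
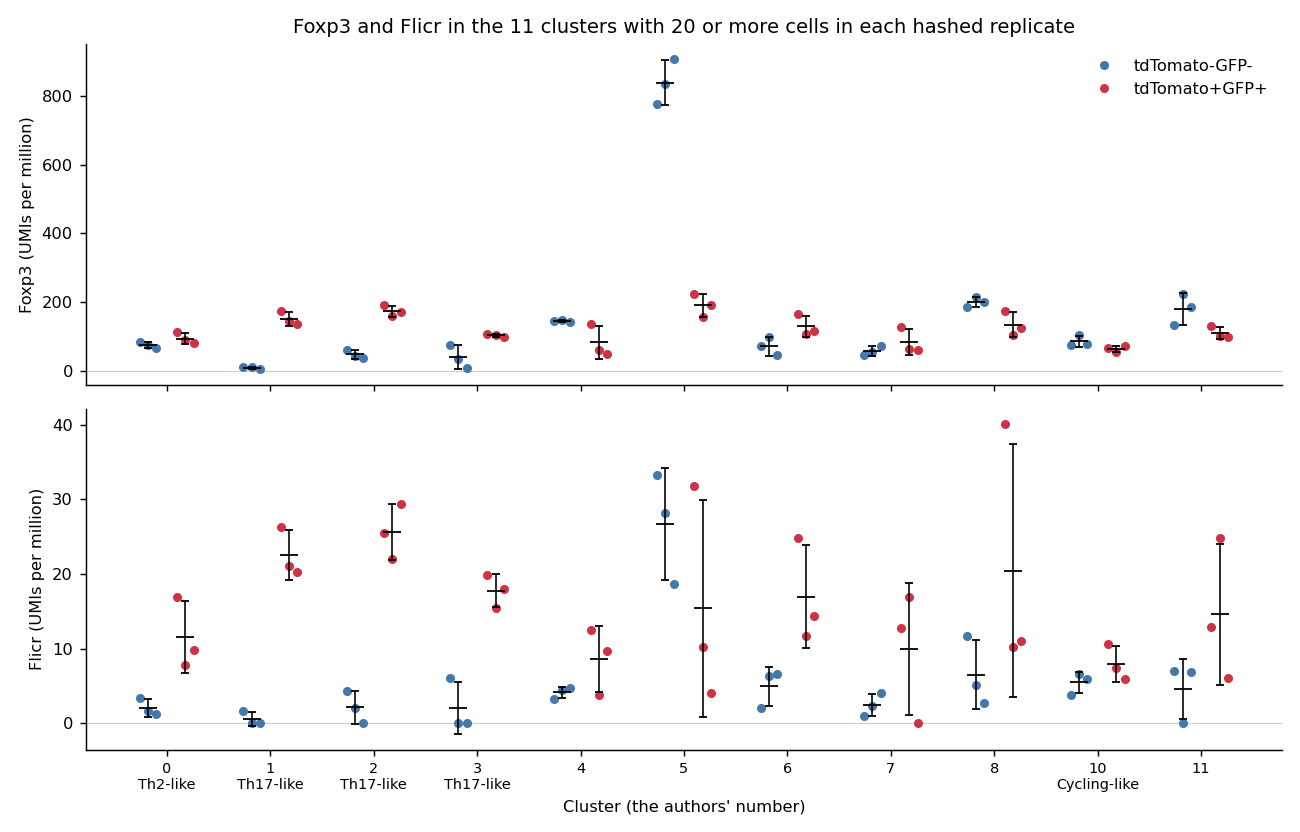
Foxp3 (top) and Flicr (bottom) in CPM for the 11 clusters with at least 20 cells in each hashed replicate, numbered as by the authors. Points are replicates, bars the mean of 3 and error bars 1 SD. Foxp3 of tdTomato-GFP- cells stands at 840 CPM in cluster 5 and at 8.14 CPM in cluster 1, while tdTomato+GFP+ cells range from 191 to 64.3 CPM.

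The pooled ratio of Flicr to Foxp3 kept its side in all of these clusters but was imprecise in most. Pooled over replicates, it was higher in tdTomato+GFP+ cells in 11 of 11 clusters. In cluster 1 it was 9.09 (95% interval 0.211 to 62.5, from 1 Flicr UMI) in the tdTomato-GFP- and 14.8 (12.6 to 17.2) in the tdTomato+GFP+ gate. Cluster 2 gave 5.45 (1.96 to 12.26) against 14.6 (12.32 to 17.3), and cluster 3 gave 6.33 (2.00 to 15.4) against 16.5 (13.2 to 20.4). In tdTomato-GFP- cells the Th2-like cluster 0 gave 3.07 (1.89 to 4.74) against 10.7 (7.40 to 15.2), and cluster 4 gave 2.59 (1.66 to 3.84) against 10.3 (5.76 to 17.3). The cycling-like cluster 10 gave 5.88 (3.38 to 9.58) against 12.7 (7.04 to 21.4). In cluster 5 the intervals were 3.07 to 4.21 and 2.41 to 13.1. The intervals of the gates overlap in clusters 1, 3, 5, 7 and 10 and not in clusters 0, 2, 4, 6, 8 and 11. They cover counting error only, not the spread between replicates. By replicate the ratios of the gates overlapped in clusters 5, 6 and 7. Cluster 6 gave 2.78, 6.35 and 14.8 against 15.1, 10.9 and 12.4, and replicate 3 of cluster 7 gave 5.56 against 0.

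Expanded clones showed how Foxp3 was shared by cells with the same receptor. There were 76 tdTomato-GFP- clones of at least 10 cells (44, 20 and 12 by replicate) and 118 tdTomato+GFP+ clones (24, 65 and 29). In the tdTomato-GFP- gate 64 of 76 clones had a Foxp3 UMI in under 10% of their cells, 10 in over 50%, and 2 lay between. Of these 10 clones, 9 had most of their cells in cluster 5. In the tdTomato+GFP+ gate 13 of 118 clones lay under 10%, 5 over 50% and 100 between, with a median of 33.3% (quartiles 25.0 and 42.0). By replicate, the share of clones between these limits was 2.27, 5.00 and 0% in the tdTomato-GFP- gate and 87.5, 83.1 and 86.2% in the tdTomato+GFP+ gate, without overlap. At least 1 Flicr UMI was found in 11 of 76 and in 83 of 118 clones. Cells of a clone share their origin and are no replicates, so these are descriptions of the clones sampled.

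Foxp3 was also compared between cells with and without a Flicr UMI in the same cluster. In cluster 5 of the tdTomato-GFP- gate, 79, 42 and 15 cells with Flicr were summed and compared with the other cells of the cluster, with replicate as a block. The Foxp3 difference was 0.19 on the log2 scale (SE 0.11, adjusted p = 0.943), and 0.242% of 6619 genes were called, Flicr, which chose the cells, among them. A like comparison in the Th17-like tdTomato+GFP+ cells (109, 225 and 114 cells with Flicr), added after the data were seen, gave 0.61 for Foxp3 (SE 0.087, edgeR adjusted p = 0.000826), with 0.124% of 9716 genes called. That call was lost without the replicate block (adjusted p = 0.193), without replicate 2 (0.0827) and with cells thinned to 2000 UMIs (0.38, adjusted p = 0.983). DESeq2 kept it (adjusted p = 0.0381).

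The genes around the locus moved unevenly. Of the 12 neighbours listed, 10 were measured and tested, and over all cells 5 rose and 1 fell, where 13.0% of all genes were called higher and 13.4% lower. Their median log2 difference was 0.44, beside -0.00203 for all genes. Syp, which encodes the synaptic vesicle protein synaptophysin and begins 58.8 kb downstream of the most frequent Foxp3 start, gave 6.27, 3.16 and 4.16 CPM among tdTomato-GFP- replicates, against 49.7, 38.4 and 34.4 CPM among tdTomato+GFP+ ones. The groups lie far apart, and Syp rose by 3.09 (SE 0.26, adjusted p = 0.000526). Syp was singled out after its values were seen. In the Th17-like clusters it rose by 3.04 (SE 0.22, adjusted p = 5.96e-07), and it passed in each of clusters 0, 1, 2, 3 and 6 with differences from 2.45 to 3.86. In cluster 5 Syp stood at 17.7, 8.28 and 9.30 CPM against 21.2, 30.6 and 28.7 CPM, a difference of 1.20 that did not pass (SE 0.48, adjusted p = 0.205).

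Ccdc22 (7593809 to 7605517, minus strand), which encodes a subunit of an endosomal sorting complex, overlaps the end of Foxp3 at 7595245 and lies before Syp. Its difference over all cells was 0.62 (SE 0.18, adjusted p = 0.0509, and 0.000181 blocked on replicate number), and that in the Th17-like clusters 0.57 (adjusted p = 0.0526, and 0.00231 with the block). Plp2, which encodes a membrane protein and begins 91.7 kb downstream, rose by 0.82 (SE 0.082, adjusted p = 0.000316) over all cells and by 0.66 (SE 0.098, adjusted p = 0.000391) in the Th17-like clusters. Ppp1r3f, on the strand opposite to Flicr, was at 12.8, 13.4 and 11.2 CPM against 29.4, 23.3 and 19.7 CPM and rose by 0.92 (SE 0.15, adjusted p = 0.00266). Its call was lost with equal cells per cluster (adjusted p = 0.223) and with 1 cell per clonotype (0.0641), and the Plp2 call of the Th17-like clusters with 1 cell per clonotype (0.0774). In the Th17-like clusters Ppp1r3f rose by 0.64 (adjusted p = 0.0228), and this call was lost with DESeq2 (0.0868), with 1 cell per clonotype (0.333) and without tdTomato-GFP- replicate 1 (0.181) or 2 (0.0782) or tdTomato+GFP+ replicate 1 (0.0589). Prickle3 and Praf2 rose by 0.34 and 0.53 over all cells (adjusted p = 0.0162 and 0.00227), the first not without tdTomato-GFP- replicate 2 (0.0627) or tdTomato+GFP+ replicate 2 (0.0819), with DESeq2 (0.0733) or with 1 cell per clonotype (0.622). With equal cells per cluster neither passed (0.342 and 0.141), nor did Pim2 (0.350). Gpkow, Wdr45 and Otud5 gave 0.11, -0.04 and -0.10 and did not pass. Pim2, a kinase gene induced by cytokines and known as a Foxp3 target, fell by 0.65 over all cells (SE 0.11, adjusted p = 0.00339) and rose by 1.51 in cluster 5 (SE 0.34, adjusted p = 0.0167). The cluster 5 call was lost without tdTomato+GFP+ replicate 2 (0.300) or tdTomato-GFP- replicate 2 (0.0830).

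**Figure D4:**
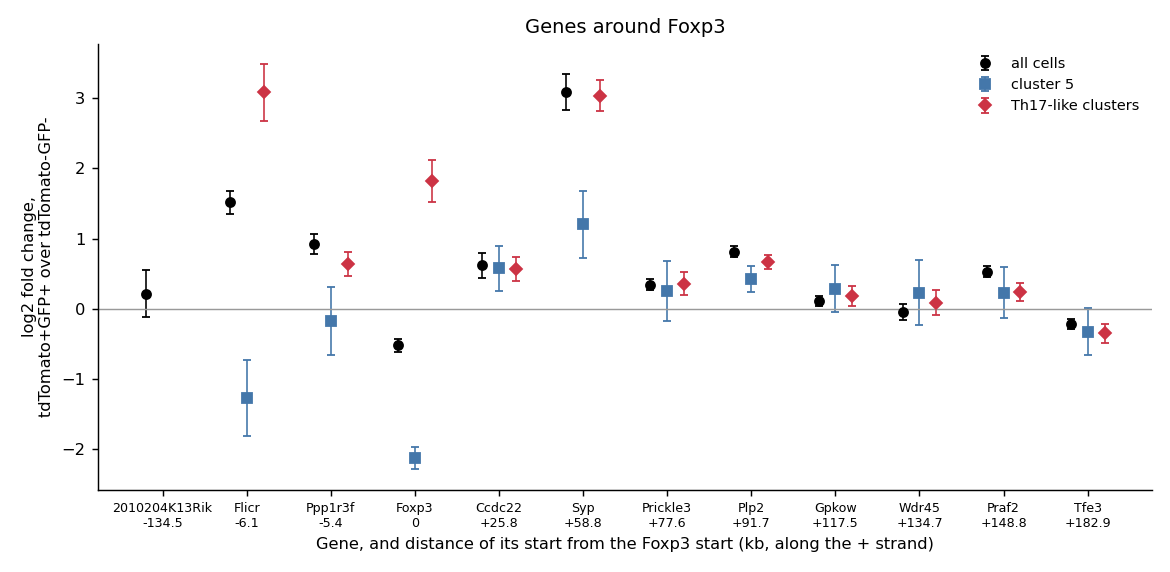
Log2 fold change of tdTomato+GFP+ over tdTomato-GFP- cells (y axis, error bars 1 SE) for the tested genes with an end within 200 kb of the most frequent Foxp3 start, ordered along the plus strand with the distance of their start in kb. Symbols stand for all cells, cluster 5 and the Th17-like clusters. Flicr and Syp stand highest in the Th17-like clusters, at 3.08 and 3.04, while Foxp3 is at -2.13 in cluster 5.

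Genes whose levels followed Foxp3 or Flicr over the same 11 clusters differed between the gates. With log2(CPM + 10) of the mean of 3 replicates, the genes most like Foxp3 in tdTomato-GFP- cells were Itgae, an integrin of tissue T cells (r = 0.97), Klrg1, an inhibitory receptor (0.96), Ifi47 (0.94), Tent5a (0.94) and Tnfrsf18, which encodes GITR (0.93). In tdTomato+GFP+ cells they were Crem, a cAMP-responsive factor (0.94), Snx14 (0.91), Ttc5 (0.91), N4bp1 (0.89) and Junb, an AP-1 subunit (0.89). Most like Flicr were Ky (0.98), Apol9b (0.96), C2cd4b (0.95), Dgat2 (0.95) and Tnfrsf9 (0.94) in tdTomato-GFP- cells, and Kmt2a (0.92), Ppp1r3f (0.92), Trim14 (0.92), Junb (0.92) and Rhoh (0.92) in tdTomato+GFP+ cells. Foxp3 and Flicr themselves correlated at 0.89 and 0.84. These are descriptions over 11 points from shared libraries, and cluster 5 alone lies far from the rest in the tdTomato-GFP- gate.

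Of the regulators of the locus and the partners of the protein, 3 and 2 passed in cluster 5, where Foxp3 itself fell. Of 29 listed regulators of Foxp3 transcription 26 were tested, 1 rose and 2 fell (median -0.05, beside -0.00299 for all genes), which are 3.85% and 7.69% beside 1.51% and 2.20% of all genes. Nfkb1, an NF-kappaB subunit, rose from 312, 362 and 345 CPM to 721, 592 and 508 CPM (log2 fold change 0.87, SE 0.14, adjusted p = 0.00194). Foxo1, a factor needed for Treg development, fell by 0.86 (SE 0.19, adjusted p = 0.0129), and Stat5b, which carries the IL-2 signal, fell by 0.75 (SE 0.19, adjusted p = 0.0379, and 0.0508 when blocked on replicate number). Of 22 cofactors of the Foxp3 protein 20 were tested, 1 rose and 1 fell (median -0.16). Irf4, a partner in effector Treg cells, rose by 0.77 (SE 0.16, adjusted p = 0.0115), and Lef1 fell by 2.50 (SE 0.47, adjusted p = 0.00464). Each of these shares rests on 1 or 2 genes. In the Th17-like clusters, where Foxp3 was higher, 2 of 28 tested regulators rose and 9 fell, beside 4.75% and 6.45% of all genes, and 5 of 21 cofactors fell.

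Genes known as raised in Treg cells or bound by Foxp3 fell more often than they rose in the tdTomato+GFP+ cells of cluster 5. Of 30 listed, 27 were tested, 1 rose and 6 fell (median -0.58), beside 1.51% and 2.20% of all genes and their median of -0.00299. The list was chosen with earlier results of these data known. Of its genes, Penk, Klrg1, Tnfrsf9, Gzmb and Itgae are among the 10 leading genes that set cluster 5 apart. That cluster holds 1496 tdTomato-GFP- and 162 tdTomato+GFP+ cells, so these counts are descriptions and no independent support. Lrrc32, which encodes the TGF-beta carrier GARP, went from 54.0, 74.5 and 84.9 CPM to 10.6, 0 and 8.20 CPM (-3.75, SE 0.60, adjusted p = 0.00194). Itgb8, whose integrin activates TGF-beta, gave -2.83 (SE 0.45, adjusted p = 0.00188), Itgae -2.66 (SE 0.47, adjusted p = 0.0242) and S100a4 -1.18 (SE 0.18, adjusted p = 0.00136). Of 17 genes known as lower in Treg cells or repressed by Foxp3, 13 were tested and 4 rose (median 0.78). Il17a, the Th17 cytokine, went from 101, 85.5 and 81.4 CPM to 1547, 824 and 549 CPM (3.40, SE 0.37, adjusted p = 0.00773). Cd40lg, a helper ligand, rose by 2.19 (SE 0.32, adjusted p = 0.0129), Pde3b, a phosphodiesterase gene, by 2.11 (SE 0.31, adjusted p = 0.000851) and Themis by 1.66 (SE 0.28, adjusted p = 0.00194). In the Th17-like clusters the same lists gave 7 higher and 2 lower of 25 (median 0.15) and 1 higher and 8 lower of 15 (median -1.22), beside 4.75% and 6.45% of all genes and their median of 0.00511. Several of these cluster 5 calls were lost when a library was left out, while the differences kept their sign. Over the 6 libraries left out in turn they ranged from -0.95 to -0.76 for Foxo1, -0.88 to -0.65 for Stat5b, 0.58 to 0.89 for Irf4, -2.93 to -2.26 for Lef1, -3.81 to -2.36 for Itgb8, -3.06 to -2.30 for Itgae, 1.93 to 2.42 for Cd40lg and 1.31 to 1.81 for Themis. Without tdTomato+GFP+ replicate 2 the adjusted p was 0.155 for Foxo1, 0.255 for Stat5b, 0.197 for Irf4, 0.0514 for Lef1, 0.0623 for Itgb8, 0.178 for Itgae and 0.137 for Cd40lg. Without tdTomato+GFP+ replicate 3 it was 0.0608 for Foxo1, 0.185 for Stat5b, 0.249 for Itgae, 0.0713 for Cd40lg and 0.0628 for Themis. Without tdTomato-GFP- replicate 2 it was 0.0584 for Foxo1, 0.0967 for Stat5b and 0.102 for Irf4, and Stat5b also missed the threshold without replicate 1 (0.0505) or 3 (0.0537) of that gate. With 1 cell per clonotype, where 3734 genes were tested, Il17a and S100a4 kept their calls, and the other 11 genes named here from these 4 lists did not pass (adjusted p from 0.0524 for Themis to 0.705 for Irf4).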

How the data were processed

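Single-cell RNA and hashtag libraries of colonic CD4 T cells were measured in 2 gates of 3 labelled biological replicates, and p-values measure the spread between these. The deposited values are raw UMI counts per cell and gene, with PhenoGraph clusters, hashtag assignments and receptor clonotypes given by the authors. The submitters' processing notes name Cell Ranger, Scanpy 1.7.2, mm10 and GRCm38. The annotation version is not given in the sources used here, and the labels do not say which of the named 3′ and 5′ chemistries was used. Hashtags held 43.8% of the counts and were left out of all totals. No column belonged to other samples, 4721 cells without a replicate and 216 without a cluster stayed out of the fits they could not enter, and no doublet caller was run.

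Counts were summed per replicate and class (7424984 to 23289046 UMIs per replicate over all cells) and tested with edgeR 4.0.16 (quasi-likelihood, robust, TMM, count minimum 10, Benjamini-Hochberg, threshold 0.05) in R 4.3.3. DESeq2 1.42.0 was an alternative. Single values were compared by exact two-sided permutation (scipy 1.17.1), without pairs and, added after the data were seen, within pairs of the same replicate number. The code was tested on simulated data. Intervals and limits cover counting error only, and a count of 0 allows up to 3 counts. Clusters were named from fixed markers (at least 3, and 50% of the list, at 1.5 times the other cells), with thresholds set after the data were seen. Clonotypes had both chains. Same-numbered replicates of the gates deviated together (correlations 0.26, 0.18 and 0.22 over 12162 genes), while differently numbered ones gave -0.21 to 0.039. The numbers may thus pair the samples, though the labels shown do not state it. The main gate fits were not blocked on the number, and the block was an alternative that changed some calls.

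The naive or central memory marker set is not reported here. Members and lists were chosen with earlier results of these data known. Named are, per list, up to 4 genes with the largest change among those passing in cluster 5, the 5 genes most like each member over 11 clusters (at least 20 CPM in a cluster), and the whole neighbour list. Alternatives were the replicate block, DESeq2, no count filter, leaving out each replicate, 1 cell per clonotype, equal cells per cluster and, added after the data were seen, leaving out cells whose barcode is in both lanes.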

Additional observations from a re-analysis of the deposited data

Results flagged for a closer look

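The gate effect on both RNAs differed between cluster 5 and the Th17-like clusters by a test of the difference itself. It was -4.38 on the log2 scale for Flicr (edgeR adjusted p = 1.16e-05) and -3.99 for Foxp3 (adjusted p = 0.00971). The Foxp3 call did not hold when any tdTomato+GFP+ replicate was left out (adjusted p = 0.0715, 0.0930 and 0.103).

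Cells that no hashtag assigned to a replicate were in no comparison, and Flicr was seen in them too. It stood at 15.9 CPM in 2504 such tdTomato+GFP+ cells and at 5.68 CPM in 2217 tdTomato-GFP- cells, and Foxp3 at 116 and 176 CPM. These cells gave 13.7 and 3.22 Flicr UMIs per 100 Foxp3 UMIs. Their median depth was 7675.5 and 7103 UMIs, above that of the assigned cells.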

How the results depend on the processing

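The Flicr differences over all cells, in the Th17-like clusters and between classes kept direction and call under every alternative that gave an adjusted p. DESeq2 gave none for the difference between classes, and with 1 cell per clonotype Flicr was not tested in the Th17-like clusters. In those clusters Flicr passed the count filter through the tdTomato+GFP+ replicates, in gates sorted on this locus. In cluster 5 Flicr passed under no alternative, and it was not tested there without any 1 tdTomato-GFP- replicate or with 1 cell per clonotype. Of all alternative values, 535 kept direction and side of the threshold, 61 lost a call, 18 gained one, 11 reversed and 2 moved without a test. The cause was not tested.

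With equal cells per cluster Foxp3 over all cells was -0.047 and Wdr45 0.011. With 1 cell per clonotype Gpkow over all cells was -0.086, and in the Th17-like clusters Otud5 was 0.16 and Prickle3 -0.027. The odds ratio of the tdTomato-GFP- gate was 20.9 unstratified and 17.1 thinned. Foxp3 in Th17-like cells with against without Flicr was 0.38 thinned. Without the count filter 16 list genes fell in cluster 5, against 9.

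Leaving out 1 replicate each gave 1.60 to 2.44 for Foxp3 in the Th17-like clusters, -4.65 to -3.71 for its difference between classes, and 0.55 to 0.66 for cells with against without Flicr. List genes higher in cluster 5 ranged from 5 to 11 and lower ones from 4 to 15. Otud5 ranged from -0.0099 to 0.34 in cluster 5 and from -0.16 to 0.023 in the Th17-like clusters (0.0041 without tdTomato+GFP+ replicate 1). In cluster 5 Ppp1r3f ranged from -0.53 to 0.39, Praf2 from -0.33 to 0.56 and Wdr45 from -0.20 to 0.41, and Wdr45 over all cells from -0.11 to 0.047. Genes called in cluster 5 ranged from 47 to 214 higher and 50 to 207 lower, against 98 and 143, and were 168 and 327 without the filter and 17 and 20 with 1 cell per clonotype.

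With the replicate block 153 genes were higher in cluster 5 (98 without), and 760 were higher in the Th17-like clusters (479 without). Flicr was then 1.55 over all cells, and Foxp3 in cells with against without Flicr was 0.60 with no block. Beside the calls given above, the block moved Pim2 in the Th17-like clusters past the threshold (-0.53, adjusted p = 0.0108), and it changed no other call of the members and genes named. Pairing the exact permutation tests, added after the data were seen, gave p = 0.25 for each ratio and share. Depth limits Flicr: 7 UMIs in cluster 5 of the tdTomato+GFP+ gate, and too few to test in 5 clusters.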
